A study of Mus musculus with 2 samples.

Results

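A set of 10 genes was followed through thymic epithelial cells (TECs) of the mouse. It holds the constitutive Hspa8 and genes that answer within minutes to hours to handling, heat or growth factors. The 10 were Fos, Fosb, Jun, Junb, Atf3, Egr1, Hspa1a, Hspa1b, Hspa8 and Dnajb1. They were taken by symbol and are 10 of the 32285 genes listed in the count matrices. All 10 were detected and passed every limit on low counts described below. Fos, Fosb, Jun, Junb, Atf3 and Egr1 are summed here as the AP-1 group, and Hspa1a, Hspa1b, Hspa8 and Dnajb1 as the heat-shock group. Egr1 is no AP-1 subunit but is induced with them.

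The study compared TECs of C57BL/6 mice 15 days after irradiation with TECs of mice left untreated, by droplet single-cell RNA sequencing (scRNA-seq). Each condition was 1 library that pooled the cells of 3 mice, so there is no replicate and no test between conditions. The thymus was minced and digested with Liberase and DNase I at 37 °C in 3 rounds of 12 min, and EpCAM+ cells were sorted before loading. The labels give the mice an age of 9 weeks, and their protocol gives 4 weeks.

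The condition of the libraries is in conflict between the sources, so they are called here by size. The smaller library, of 4937 barcodes, is titled Radiation in the labels, and the larger, of 7167 barcodes, is titled Control. The names of the matrices and the cell numbers of the study's account give the opposite, with the smaller library from untreated and the larger from irradiated mice. Cells kept by the study's limits numbered 3233 in the smaller and 5070 in the larger library. These equal the numbers the study gives for control and irradiated TECs. Every ratio is given as larger over smaller library. It is irradiated over control by the matrix names and control over irradiated by the titles.

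AP-1 is a family of paired leucine zipper proteins. FOS and FOSB pair with JUN or JUNB and bind DNA as a dimer, and ATF3 is a related protein that is induced by stress and often acts as a repressor. EGR1 is a zinc finger factor of the same immediate early response, in which mRNA appears without new protein synthesis and soon decays. Hspa1a and Hspa1b code for the inducible HSP70 chaperones, Hspa8 for the constitutive HSC70, and Dnajb1 for an HSP40 partner that loads clients on them. Their inducible members are switched on by heat-shock factor 1. Enzymatic digestion of solid tissue at body temperature is known to induce both groups in many cell types. Medullary TECs (mTECs) present tissue antigens to thymocytes. Ccl21a+ mTECs attract thymocytes with a chemokine, Aire+ mTECs express many tissue antigens, transit-amplifying mTECs (TA-mTECs) divide, and cortical TECs (cTECs) support positive selection.

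Promoter windows were available for 8 of the 10 genes, and the 5 that held a cAMP response element core or a heat-shock pair within 150 bases before the start site are shown, to give the sequence around these motifs. The motifs do not divide by group, since Jun held the heat-shock pair, and Dnajb1, Fosb and Junb held neither motif. They are RefSeq windows of GRCm38.p6, printed 5′ to 3′ on the strand of the gene. Capitals mark the cAMP response element core (TGACGT, either strand) in Fos and Atf3, and the pair of heat-shock element repeats (GAANNTTC or TTCNNGAA) in Jun, Hspa1a and Hspa1b.
Fos, chr12:85473740-85473889, + strand: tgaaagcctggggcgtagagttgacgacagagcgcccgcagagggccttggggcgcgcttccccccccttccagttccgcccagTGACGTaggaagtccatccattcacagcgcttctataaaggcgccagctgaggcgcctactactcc
Atf3, chr1:191183334-191183483, - strand: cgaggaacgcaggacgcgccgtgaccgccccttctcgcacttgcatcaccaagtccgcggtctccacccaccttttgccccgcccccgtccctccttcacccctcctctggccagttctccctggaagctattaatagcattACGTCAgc
Jun, chr4:95052223-95052372, - strand: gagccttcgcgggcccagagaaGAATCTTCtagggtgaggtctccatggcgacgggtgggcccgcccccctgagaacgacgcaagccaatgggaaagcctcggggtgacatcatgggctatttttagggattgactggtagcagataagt
Hspa1a, chr17:34972157-34972306, - strand: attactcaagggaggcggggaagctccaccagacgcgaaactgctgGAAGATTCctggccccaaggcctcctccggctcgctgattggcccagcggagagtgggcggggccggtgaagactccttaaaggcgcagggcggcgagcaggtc
Hspa1b, chr17:34959239-34959388, - strand: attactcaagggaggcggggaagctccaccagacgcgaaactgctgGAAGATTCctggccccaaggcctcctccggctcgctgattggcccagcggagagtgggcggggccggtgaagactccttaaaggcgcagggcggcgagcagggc
The core began 66 bases before the start site in Fos and 8 bases before it in Atf3, whose RefSeq start lies inside the longer gene of the GENCODE annotation. Over 250 bases, that core was present in 2 of the 8 windows, against 6.47% of 32851 promoter windows. The heat-shock pair was present in 3 of the 8, against 12.8% of all windows, and began at the same base in Hspa1a and Hspa1b. Neither the AP-1 site (TGANTCA, in 6.75% of all windows) nor the CArG box (in 1.47%) was found in the 8 windows. These letters do not cover longer forms such as the tgacatca in the printed Jun window. Egr1 and Hspa8 had no window, and sequence further from the start sites was not searched. These are matches of letters in short windows and not measured binding. Over 250 bases, the windows of Hspa1a and Hspa1b were identical at 98.8% of positions. Their longest transcripts were 85.5% identical over their whole length but 50.3% identical over the last 600 bases, the end that a 3′ kit reads.

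In GRCm38, Fos lies at chr12:85473890-85477273, Fosb at chr7:19302696-19310051, Jun at chr4:95049034-95052222, Junb at chr8:84974484-84978718, Atf3 at chr1:191170296-191218039 and Egr1 at chr18:34859823-34864984. Hspa1b (chr17:34956436-34959238) and Hspa1a (chr17:34969190-34972156) are neighbours, Hspa8 is at chr9:40800984-40810087 and Dnajb1 at chr8:83608193-83612653. A gene on the opposite strand overlaps Jun (Junos), Junb (Prdx2), Atf3 (Gm24748) and Hspa1a (Gm20481), and small nucleolar RNA genes lie inside Hspa8. How reads on such overlaps were assigned is not given in the sources used here.

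The smaller library held 58185309 UMIs, where a unique molecular identifier (UMI) marks a captured RNA molecule, and the larger 82201657. After the study's limits of more than 2000 and fewer than 7500 detected genes and under 15% mitochondrial UMIs, 3233 and 5070 cells were kept, with medians of 13412 and 13003.5 UMIs. The libraries shared 17 barcodes, 5 of them among kept cells. Clusters were built with all genes of the AP-1, heat-shock and unfolded protein lists left out, so that the 10 genes took no part in defining them. Of 14 clusters, 11 held at least 50 cells of each library and were compared. Cluster 0 (778 and 1107 cells in the smaller and larger library) was Ccl21a+ mTEC-like, with the highest Ccl21a, although Ccl11 and Cxcl14 led its genes. Cluster 1 is called enterocyte and microfold-like from leading genes (Lypd8, Muc13) only. Its enterocyte and microfold markers summed to 69.7 in both libraries together, on the scale of the levels below. Its Aire+ mTEC markers summed to 133, beside 139 in cluster 3 and 120 in cluster 4. Aire itself was at 4.86 in cluster 1, 9.41 in cluster 3 and 13.1 in cluster 4. A match of cluster 1 to the study's Late-Aire mTECs was not tested. Cluster 6 was cTEC-like (Psmb11, Prss16), and clusters 7 and 8 were TA-mTEC-like (Pclaf and Cdc20 among their leading genes). Cluster 9 was tuft-like (Avil, Trpm5). Cluster 10 is called Post-Aire keratinocyte-like from Spink5 and Krt10. Its Post-Aire keratinocyte markers summed to 55.2, but its enterocyte and microfold markers to 68.4, close to the sum of cluster 1. Cluster 4 was Aire+ mTEC-like, and cluster 3, led by S100a8 and S100a9, is called by number and was the other cluster with Aire at 50% or more of the highest level. Cluster 2 (Prelp, Ackr4, and the fibroblast gene Dcn) and cluster 5 (Matn1, Wfdc18, with Ccl21a) are also called by number. Cluster 2 had the highest Pdpn of the clusters (1.24), with Epcam at 5.59. A match to the study's Pdpn+ TECs was not tested. Ccl21a stood at 40.8 in cluster 2 and 54.5 in cluster 5, beside 119 in cluster 0.

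Levels are UMIs of a gene per 10000 UMIs of the cluster and library, with exact Poisson 95% intervals in brackets. A bracket on a log2 ratio pairs the lower limit of either count with the upper limit of the other. It is therefore wider than a 95% interval of the ratio. The intervals cover counting error only and not the spread between cells or between mice.

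**Figure D1:**
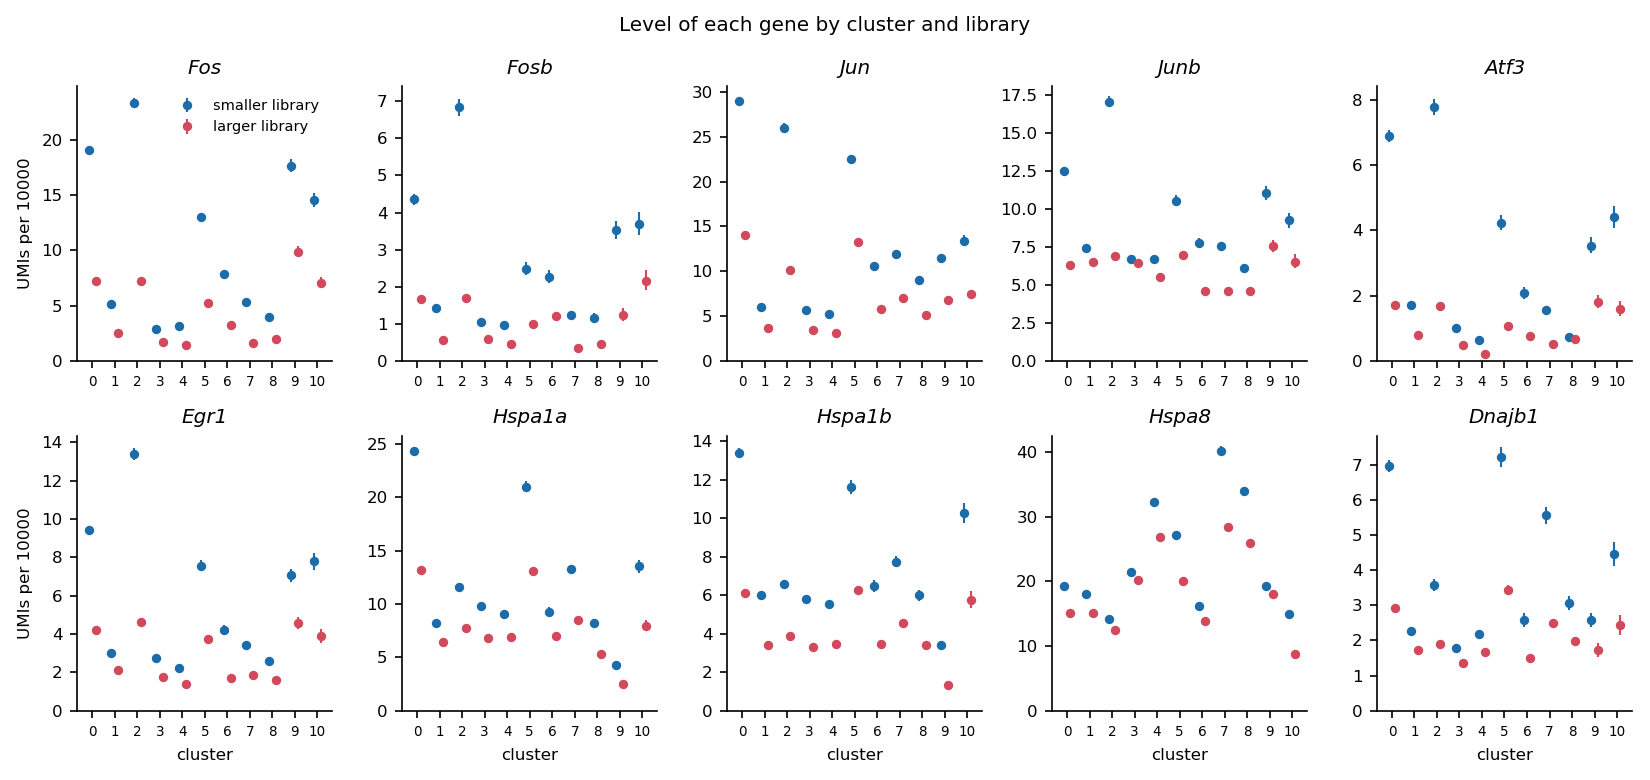
Level of each of the 10 genes (vertical axis, UMIs per 10000, from 0) in clusters 0 to 10 (horizontal axis) of the smaller and larger library, with exact Poisson 95% intervals as bars. In all 10 panels the smaller library lies above the larger in every cluster, and Hspa8 alone peaks in cluster 7.

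The AP-1 subunits were far from uniform across TECs. Fos in the smaller library ran from 2.86 [2.73 to 3.0] in cluster 3 to 23.3 [22.9 to 23.8] in cluster 2, an 8.15-fold range. In the larger library it ran from 1.43 [1.36 to 1.51] in cluster 4 to 9.88 [9.42 to 10.4] in tuft-like cluster 9. Clusters 0, 2, 9, 10 and 5 held the 5 highest levels of Fos in both libraries, and both Aire-high clusters were among the lowest 3. In cluster 0 Fos stood at 19.1 [18.8 to 19.4] in the smaller and 7.25 [7.09 to 7.40] in the larger library. Intervals overlapped in 1 of the 10 neighbouring pairs of the order in the smaller library and in 4 of 10 in the larger. Most steps of the order thus exceeded counting error, which leaves out the spread between cells.

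Fosb, the close relative of Fos, followed the same course at levels of 0.969 to 6.84 in the smaller and 0.337 to 2.16 in the larger library. It was highest in cluster 2 of the smaller library and in cluster 10 of the larger. Across the 11 clusters the levels of Fos and Fosb correlated with r of 0.97 in the smaller and 0.90 in the larger library, given as a description, since the points share their libraries.

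Jun was highest in cluster 0 in both libraries, at 29.0 [28.6 to 29.4] and 14 [13.8 to 14.2]. It was lowest in Aire+ mTEC-like cluster 4, at 5.24 [5.07 to 5.41] and 3.06 [2.96 to 3.17]. Its order of clusters was the most alike of the 10 genes between the libraries (r of 0.98 over 11 clusters). Unlike Fos, it was not prominent in tuft-like cluster 9, which stood sixth for Jun in both libraries.

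Junb varied least among the AP-1 genes. It ran from 6.10 to 17.1 in the smaller library, a 2.80-fold range, and from 4.56 to 7.53 in the larger, a 1.65-fold range. Its order was the least alike between the libraries (r of 0.62), and 8 of its 10 neighbouring pairs in the larger library had overlapping intervals. Cluster 0 ranked second for Junb in the smaller library and seventh in the larger.

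Atf3 had the widest range of the 10 genes, 12.1-fold in the smaller and 8.65-fold in the larger library. Its highest level in the smaller library was 7.79 [7.54 to 8.04], in cluster 2, and cluster 0 followed at 6.91 [6.73 to 7.09]. In the larger library tuft-like cluster 9 led at 1.81 [1.62 to 2.03], cluster 0 held 1.71 [1.63 to 1.79] and cluster 2 held 1.67 [1.56 to 1.78], and the intervals of the 3 overlapped. Cluster 4 had the lowest Atf3 of both libraries, at 0.642 [0.585 to 0.703] and 0.210 [0.183 to 0.240].

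Egr1 was highest in cluster 2 in both libraries, at 13.4 [13.1 to 13.7] and 4.64 [4.46 to 4.82], and lowest in cluster 4, at 2.22 [2.11 to 2.33] and 1.40 [1.33 to 1.48]. The AP-1 sum of the 6 genes was highest in clusters 0, 2, 5, 9 and 10 and lowest in clusters 3, 4 and 8 in both libraries. Over the 15 pairs of AP-1 genes, the median correlation across clusters was 0.94 in the smaller and 0.76 in the larger library.

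The 5 highest clusters for Hspa1a and for Hspa1b were 0, 2, 5, 7 and 10 in both libraries, which differed from those of the AP-1 sum in holding cluster 7 in place of cluster 9. Hspa1a was highest in cluster 0, at 24.3 [24.0 to 24.6] and 13.2 [12.9 to 13.4], and cluster 5 followed at 21.0 [20.5 to 21.5] and 13.1 [12.8 to 13.4]. It was lowest in tuft-like cluster 9, at 4.30 [4.03 to 4.57] and 2.49 [2.26 to 2.74], a cluster that was rich in Fos. Hspa1b was highest in cluster 0 of the smaller library (13.4 [13.2 to 13.7]) and cluster 5 of the larger (6.26 [6.07 to 6.45]), and was lowest in cluster 9 as well (3.39 and 1.34). The pair correlated across clusters with r of 0.97 and 0.95.

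Dnajb1, their HSP40 partner, was highest in cluster 5, at 7.23 [6.95 to 7.53] and 3.45 [3.31 to 3.59], with cluster 0 next at 6.98 and 2.93. TA-mTEC-like cluster 7 ranked next in both libraries, at 5.57 and 2.49, and cluster 3 was lowest, at 1.79 and 1.34.

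Hspa8 did not follow the other chaperones. It peaked in TA-mTEC-like cluster 7, at 40.2 [39.6 to 40.9] and 28.4 [28 to 28.8], and cluster 8 and Aire+ mTEC-like cluster 4 came next (33.9 and 32.3 in the smaller, 25.9 and 26.9 in the larger library). It was lowest in cluster 2 of the smaller library, at 14.2 [13.9 to 14.6], and in cluster 10 of the larger, at 8.83 [8.30 to 9.38]. Hspa8 supplied 120171 of the 243637 heat-shock UMIs of the smaller library and 148637 of 258155 of the larger, so the heat-shock sum is also given without it.

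**Figure D2:**
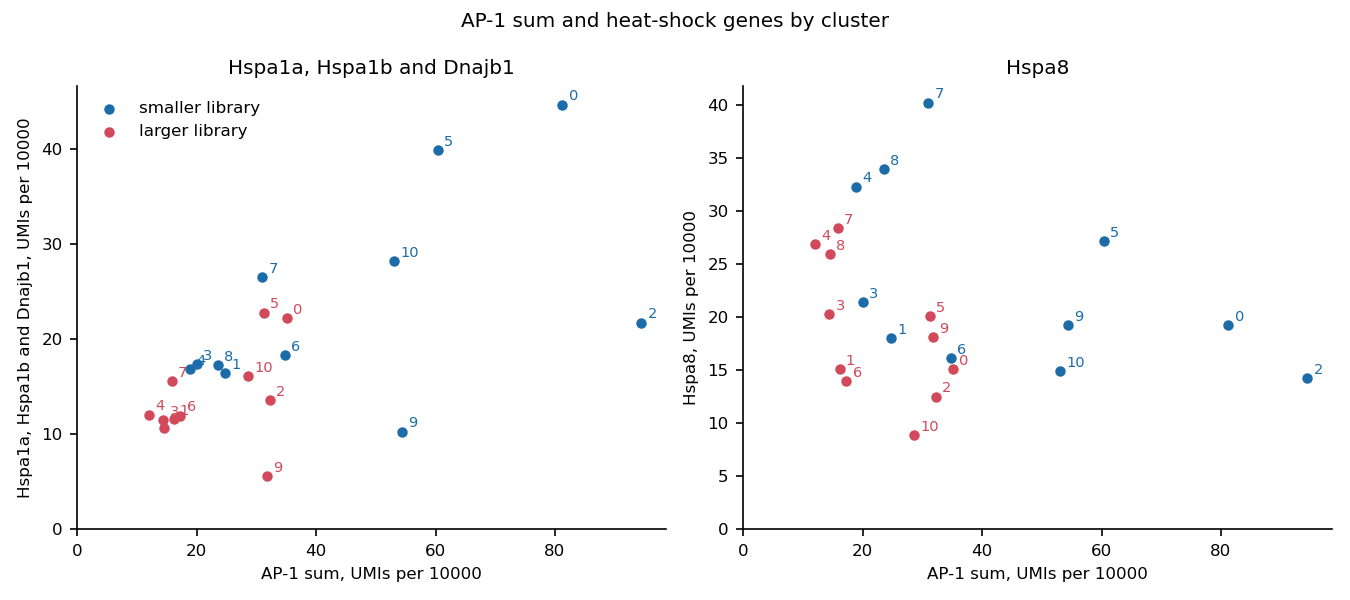
AP-1 sum (horizontal axis) against Hspa1a, Hspa1b and Dnajb1 together (left) and against Hspa8 (right), all in UMIs per 10000, with 1 point per cluster (number) and library (colour). Clusters 0 and 5 are high in both sums, cluster 2 and tuft-like cluster 9 are high in AP-1 with few inducible chaperone UMIs for their AP-1 sum, and clusters 4, 7 and 8 are high in Hspa8 with a low AP-1 sum.

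Across clusters, then, the AP-1 sum and the heat-shock sum were not interchangeable. Over the 11 clusters r was 0.07 in the smaller and -0.27 in the larger library, and without Hspa8 it was 0.48 and 0.25. Cluster 2 had an AP-1 sum of 94.5 [93.6 to 95.3] and 21.7 [21.3 to 22.2] for Hspa1a, Hspa1b and Dnajb1 in the smaller library. Cluster 0 held 81.2 [80.6 to 81.8] and 44.7 [44.2 to 45.1]. Tuft-like cluster 9 had an AP-1 sum of 54.3 [53.4 to 55.3] and the lowest value for the 3 chaperone genes, 10.3 [9.85 to 10.7]. In the larger library the same 3 clusters stood at AP-1 sums of 32.3, 35.1 and 31.8 and at 13.6, 22.2 and 5.56 for the chaperone genes. The median of the 11 clusters for the 3 chaperone genes was 18.3 in the smaller and 12.1 in the larger library. Cluster 2 was above it in both, and cluster 9 below it.

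Within a cluster, cell by cell, the AP-1 and heat-shock sums rose together to a varying degree. Whether they form a shared response was not tested. Each cell was thinned to 3500 UMIs, and the AP-1 and heat-shock sums of its cells were correlated on a log2 scale in each cluster and library. The median r over the 22 combinations was 0.43, from 0.05 in tuft-like cluster 9 of the larger library to 0.74 in cluster 5 of the smaller. Without Hspa8 it was 0.57, from 0.31 to 0.76, and Hspa8 alone against the AP-1 sum gave 0.10. In cluster 0 the values without Hspa8 were 0.76 in 778 cells and 0.73 in 1107 cells. Correlations across cells of 1 library are descriptions and carry no p. The AP-1 sum and the unthinned UMI count of the cell had a median r of -0.07, and the AP-1 sum and the mitochondrial share had 0.01.

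By gene, the most alike pair within clusters was Fos and Egr1 (median r of 0.60 over the 22 combinations), followed by Hspa1a and Hspa1b (0.55) and Fos and Jun (0.54). Jun was the AP-1 gene most alike to Hspa1a (0.47). The 9 pairs with Hspa8 had the 9 lowest medians of the 45 pairs, between 0.06 and 0.17. When the 10% of cells with the highest AP-1 sum were taken in each cluster and library, their heat-shock sum was above that of the other cells in 22 of 22 combinations, with a median ratio of 2.06 (1.17 to 3.03). These cells had fewer UMIs than the rest in 19 of the 22 and a higher mitochondrial share in 17, and the part of either in the ratio was not tested.

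**Figure D3:**
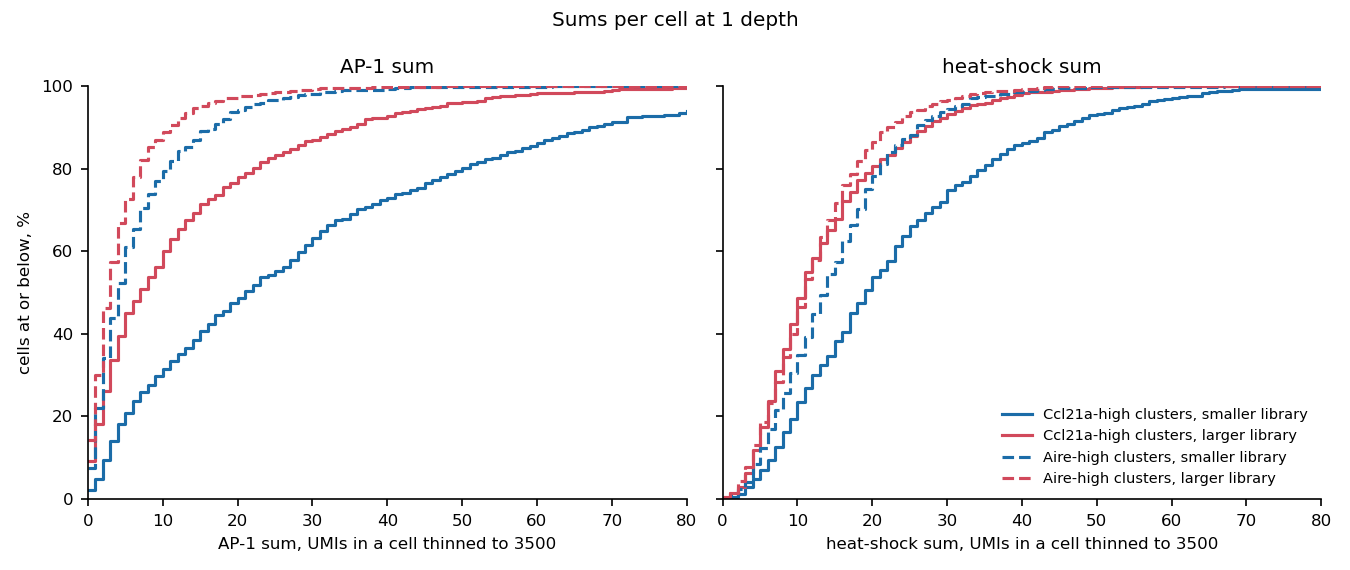
Cumulative share of cells (vertical axis, %) by AP-1 sum (left) and heat-shock sum (right) per cell after thinning to 3500 UMIs, for Ccl21a-high cluster 0 (solid) and Aire-high clusters 3 and 4 (dashed) of each library. The AP-1 curves of cluster 0 run to the right of the Aire-high ones in both libraries, while the heat-shock curve of cluster 0 in the larger library lies near the Aire-high ones.

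The contrast of Ccl21a-high cluster 0 with Aire-high clusters 3 and 4 was made in each library separately. A gene was counted as higher or lower when it differed at least 2-fold the same way in both. Of 15136 genes with enough UMIs, 12.8% were higher and 28.9% lower in cluster 0 by this rule. Among the 10 genes, 5 were higher, namely Fos, Fosb, Jun, Atf3 and Egr1, and none was lower. With 0.5 UMIs added to each count, the median log2 ratio of the 10 genes was 1.52, and that of all genes tested was -0.07.

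Atf3 showed the largest contrast. In the smaller library it stood at 6.91 in cluster 0 and 0.807 in the Aire-high clusters, a log2 ratio of 3.10 [2.98 to 3.22], and in the larger library at 1.71 and 0.336, a log2 ratio of 2.34 [2.17 to 2.52]. Fos differed by 2.66 [2.59 to 2.73] and 2.23 [2.14 to 2.31] on the log2 scale, and Jun by 2.42 [2.37 to 2.47] and 2.11 [2.05 to 2.17]. Fosb (2.11 and 1.71) and Egr1 (1.93 and 1.42) came next. Junb gave 0.90 [0.84 to 0.96] in the smaller library but 0.09 [0.03 to 0.15] in the larger, where its levels were 6.30 in cluster 0 and 5.92 in the Aire-high clusters.

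The inducible chaperone genes had ratios above those of Junb in both libraries and below those of the other 5 AP-1 genes. Hspa1a gave 1.37 [1.32 to 1.41] and 0.94 [0.89 to 0.98], Hspa1b gave 1.25 and 0.85, and Dnajb1 gave 1.8 and 0.94. These passed 2-fold in the smaller library only. Hspa8 went the other way, with log2 ratios of -0.50 [-0.54 to -0.46] and -0.67 [-0.70 to -0.63]. The AP-1 sum therefore differed 4.18-fold and 2.68-fold, and the heat-shock sum 1.44-fold and 1.04-fold. The ratio was lower in the larger library for all 10 genes, and that difference between the libraries has no replicate behind it. All these ratios compare shares of UMIs, and cells of the compared clusters differed in UMIs. The median per cell was 9647 UMIs in cluster 0, against 16101 in cluster 3 and 20000 in cluster 4, with both libraries together. Ratios of unscaled UMIs per cell were not computed, and they would be smaller for genes higher in cluster 0.

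Per cell at 3500 UMIs, the median AP-1 sum in cluster 0 was 21 UMIs in the smaller and 7 in the larger library, against 4 and 3 in the Aire-high clusters. The highest 10% of cells in cluster 0 held at least 67.3 and 35 AP-1 UMIs, against 17 and 11. Atf3 was the most concentrated of the 6 in cluster 0, where the top 10% of cells held 58.0% of its UMIs in the smaller and 85.3% in the larger library. The corresponding shares for Jun were 27.6% and 34.2%. Atf3 gave a UMI in 44.6% of thinned cells of cluster 0 and 12.4% of Aire-high cells in the smaller library (54.0% and 32.7% unthinned), and in 18.5% and 8.12% in the larger (28.2% and 19.6% unthinned). No TEC type is known to lack Atf3, so a share owed to free RNA was not measured.

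**Figure D4:**
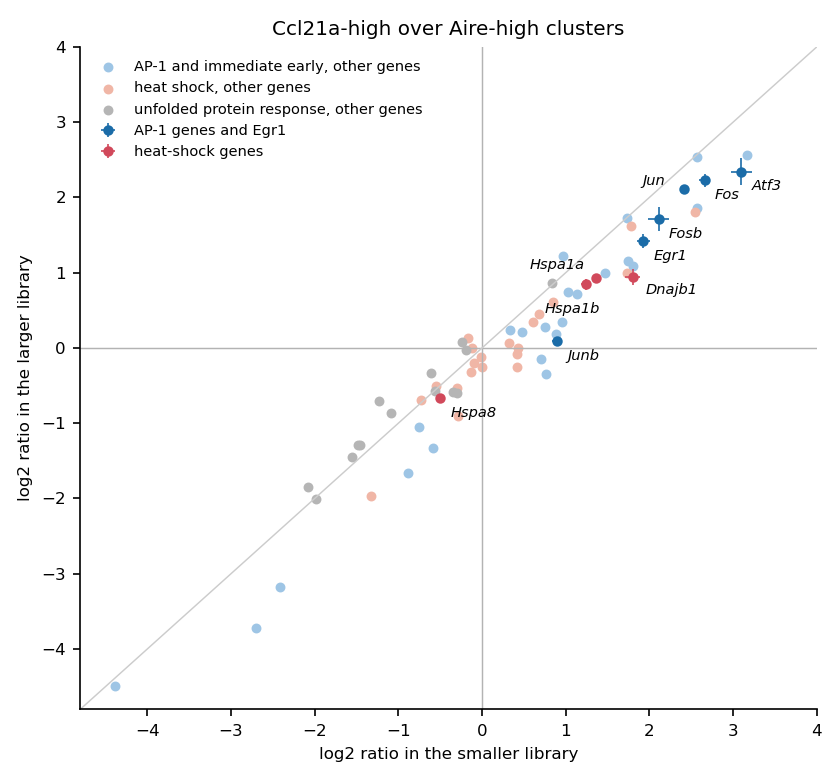
Log2 ratio of Ccl21a-high cluster 0 over Aire-high clusters 3 and 4 in the smaller (horizontal axis) and larger library (vertical axis) for the 10 genes and for the other genes of the lists (pale points). Bars of the 10 genes are set from the Poisson 95% limits of both counts. Fos, Fosb, Jun, Atf3 and Egr1 lie above 1 on both axes, Hspa8 lies below 0 on both, and most unfolded protein response genes lie below 0.

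Other genes of these pathways, in lists also chosen with earlier results of these data known, did not all share the contrast. Of 23 tested AP-1 and immediate early genes outside the 10, 6 were at least 2-fold higher in cluster 0 in both libraries and 3 were lower (12.8% and 28.9% of all genes tested), with a median log2 ratio of 0.54 as the mean of both libraries. Socs3, a feedback inhibitor of cytokine signalling (2.87), Egr2 (2.55) and the growth arrest gene Btg2 (2.21) were the highest. Batf3 (-4.44), Batf (-3.21) and Gadd45b (-2.80) were the lowest. Of 21 other heat-shock genes, 2 were higher and 1 lower, beside 12.8% and 28.9% of all genes tested. Hspb1 (2.17), Dnajb4 (1.70) and the HSP70 cochaperone Bag3 (1.36) were at the upper end. At the lower end were Hspa4l (-1.65), Hspd1 (-0.71) and Hsph1 (-0.60). Of 14 genes of the unfolded protein response, the stress programme of the endoplasmic reticulum, none was higher and 5 were lower, beside 28.9% lower among all genes tested. Xbp1 (0.85), Pdia4 (-0.08) and Pdia6 (-0.11) were its highest and Creld2 (-2.0), Sdf2l1 (-1.96) and Manf (-1.50) its lowest genes. Among 11 upstream kinases and factors, 1 was higher and 0 lower, beside the same 12.8% and 28.9% of all genes tested. The 1 was Mapk14 (1.96), which codes for a stress-activated MAP kinase and was named after its value was seen.

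**Figure D5:**
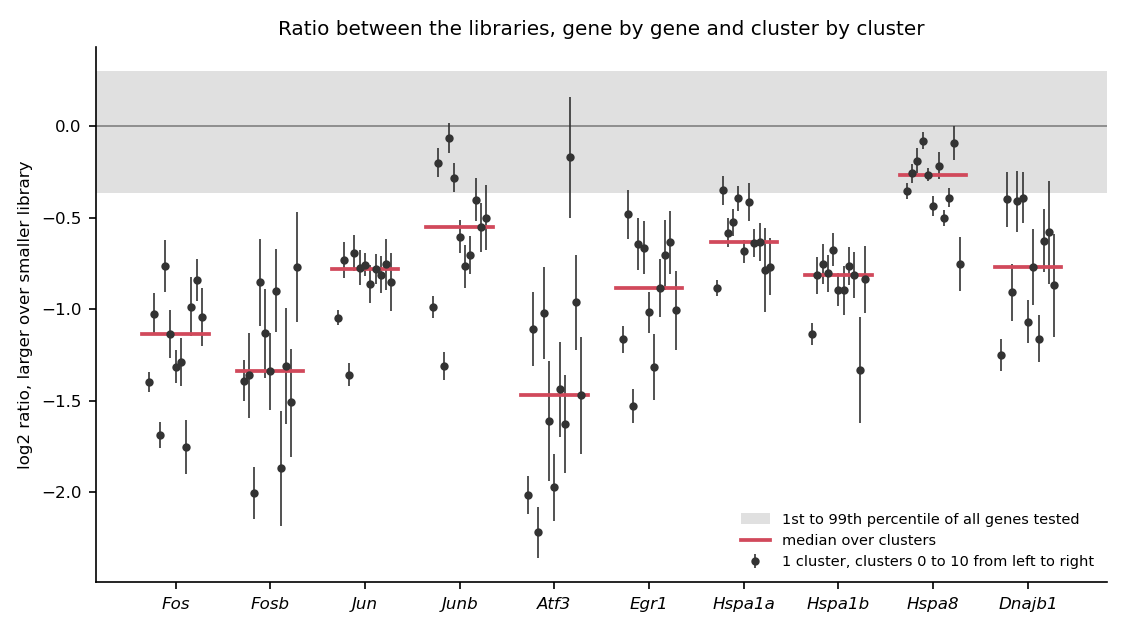
Log2 ratio of the larger over the smaller library (vertical axis) for each of the 10 genes, with 1 point per cluster and the median over clusters as a red line. Bars are set from the Poisson 95% limits of both counts. The grey band holds the 1st to 99th percentile of the medians of all 6142 genes tested, and the red lines of all genes but Hspa8 lie below it.

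Between the libraries, all 10 genes were lower in the larger one, in each of the 11 clusters. Of 6142 genes with at least 20 UMIs in each cluster and library, 1.43% were lower in every cluster. By the median over clusters, 0.358% of genes were at least 1.5-fold lower in the larger library and 0.0488% at least 1.5-fold higher. Of the 10 genes, 8 were at least 1.5-fold lower, all but Junb and Hspa8, and these 8 are among the 22 genes past that limit. The 10 genes were chosen with earlier results of these data known, so their place among the 22 is no independent finding. The 3 genes past it in the other direction were Cdkn1a, Ccl11 and Id1, named after their values were seen. The median gene had a log2 ratio of 0 to 2 decimals, and the 1st percentile was -0.36.

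Over all kept cells, Fos stood at 10.0 [9.93 to 10.1] in the smaller and 3.72 [3.68 to 3.77] in the larger library. Its median log2 ratio over clusters was -1.14 (-1.75 in cluster 7 to -0.76 in cluster 3). Fosb, at 2.55 and 0.892, had a median of -1.34 (-2.01 to -0.77). Both libraries were made by the same protocol as described, but each is 1 preparation, so a preparation and a condition cannot be told apart.

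Atf3, at 3.18 [3.13 to 3.23] and 0.883 [0.862 to 0.904], had the largest ratio of the 10, with a median of -1.47, second from the lowest of all 6142 genes after the chemokine gene Cxcl1 (-1.49). In TA-mTEC-like cluster 8 its interval reached 0 (0.740 and 0.659). Egr1 stood at 5.56 and 2.56, with a median of -0.88 (-1.53 to -0.48).

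Jun, at 13.8 [13.7 to 13.9] and 7.21 [7.15 to 7.27], had a median of -0.78, and Junb, at 9.27 and 5.76, one of -0.55. The ratios of Junb spread from -1.31 in cluster 2 to -0.06 in cluster 3, where its levels of 6.71 [6.51 to 6.91] and 6.43 [6.26 to 6.60] had overlapping intervals. Clusters 0 and 2, with the highest AP-1 sums, had the lowest ratios of that sum, -1.21 and -1.55, and the median over the 11 clusters was -0.89.

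Among the chaperone genes, Hspa1b (7.59 and 4.17, median -0.81) and Dnajb1 (3.78 and 2.10, median -0.77) had the larger ratios. Hspa1a stood at 12.6 [12.5 to 12.7] and 8.23 [8.16 to 8.29], with a median of -0.63 (-0.89 to -0.35). Hspa8, at 23.3 and 19.7, had a median of -0.26 (-0.75 to -0.08), above the 1st percentile of all genes. The median of the heat-shock sum was -0.47, and -0.69 without Hspa8.

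Genes of the same pathways differed in how far they went with the members. Their lists were also chosen with earlier results of these data known, so the counts below are no independent finding. Of 15 other AP-1 and immediate early genes tested, 7 were at least 1.5-fold lower in the larger library, against 0.358% of all genes tested. In every cluster 9 were lower, against 1.43% of all genes, and the median was -0.57. Klf2 (-1.30), the mRNA-decay factor Zfp36 (-0.94) and the MAP kinase phosphatase Dusp1 (-0.93) were the lowest, and Gadd45b (-0.12), Btg1 (-0.18) and Ier5 (-0.21) the highest. Of 19 other heat-shock genes none passed the limit in either direction, and the median was -0.10. Hsph1 (-0.50), Hspb1 (-0.41) and Dnajb4 (-0.41) were the lowest, and Cryab (0.12), Hspa9 (0.11) and Dnajb6 (0.07) the highest. None of the 14 unfolded protein response genes passed, with a median of -0.05. Atf4 (-0.39), Dnajb9 (-0.25) and Herpud1 (-0.25) were the lowest, and Pdia6 (0.13), Sdf2l1 (0.10) and Manf (0.05) the highest. None of the 6 upstream factors tested passed, Hsf1 among them (-0.01). With 0.358% of all genes lower and 0.0488% higher by this limit, finding none in lists this short is near the share over all genes.

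Some measures of the libraries moved with these ratios. The cells of the smaller library had the higher median UMI count in 11 of 11 clusters and the higher median mitochondrial share in 5 of 11. Genes used as markers of cells other than TECs were summed over the cells of the 11 clusters, and none of the markers was at 0. The 5 fibroblast markers summed to 3.13 UMIs per 10000 in the smaller and 1.82 in the larger library (5 of 5 higher in the smaller, 0.347 to 18.4 and 0.310 to 9.56 over the 11 clusters). The 12 thymocyte markers summed to 0.414 and 0.341 (10 of 12 higher in the smaller, 0.104 to 1.52 and 0.0579 to 1.11 over them), the 5 myeloid markers to 3.62 and 3.0 (3 of 5 higher) and the 4 endothelial markers to 0.165 and 0.0937 (4 of 4 higher). The 3 B cell markers (0.0755 and 0.0805) and the 3 erythroid markers (0.0611 and 0.118) were each higher in the smaller library for 1 of 3. With both libraries together, the myeloid sum ran from 0.0586 in cluster 2 to 9.55 in cluster 1, and the fibroblast sum was highest in cluster 2 (13.6). Whether TECs or other cells gave these UMIs, and their part in the ratios, was not tested.

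A cluster led by AP-1 genes appeared only in the clustering that used them, of the 2 compared here. When the list genes were kept, 14 of them were among the 2000 anchor genes, and a cluster of 323 cells arose that was led by Atf3, Adamts1, Ccn1, Rrad and Fosb. It held 149 cells of the smaller library, 4.61% [3.91 to 5.39, exact binomial 95% interval] of its kept cells, and 174 of the larger, 3.43% [2.95 to 3.97]. These intervals cover the counting of cells only and not the spread between mice or preparations. The AP-1 sum of this cluster was 195 and 106 UMIs per 10000 in the smaller and larger library, values that the choice of genes itself favours. Without the list genes, 317 of these 323 cells (98.1%) lay in Ccl21a+ mTEC-like cluster 0, of which they made up 16.8%.

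The genes outside the lists whose levels most resembled those of Fos over the 22 combinations of cluster and library were Clk1 (Pearson r of 0.95 on a log2 scale), Nfkbiz (0.92), Unc45a (0.89), Ing4 (0.87) and E4f1 (0.87), out of 12595 genes. Those most like Hspa1a were Rrad (0.90), Kctd17 (0.84), Lrig1 (0.81), Col4a1 (0.80) and Sema4c (0.80). Clk1 was at 1.35 and 0.987 UMIs per 10000 in the smaller and larger library, and Rrad at 1.5 and 0.953.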

How the data were processed

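Counts of UMIs per gene and barcode were deposited by the authors without normalization. Per the methods of the study, reads were trimmed with Fastp, aligned to mm10 and counted with Cell Ranger, version 5.0.1 per the file headers and 5.1 per the submitters' processing notes. The labels and the methods name different versions of the 3′ chemistry.

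From these counts, genes found in at least 5 barcodes entered, cells were kept by the study's limits, and Seurat 5.3.0 (R 4.3.3) gave log normalization, 3000 variable genes, 2000 anchor genes, 20 principal components and clusters at resolution 0.5. No doublet caller was run. Leaving out the 5% of cells with the most UMIs was an alternative. Levels, ratios with 0.5 added UMIs, and intervals (exact Poisson or Clopper-Pearson, 95%) were computed with Python 3.11.15, numpy 2.4.6, scipy 1.17.1 and pandas 2.3.3, and plots with matplotlib 3.10.9. Intervals of ratios were set from the Poisson limits of both counts and are not exact 95% intervals of the ratio. With 1 library per condition no p-value is given. Genes entered the library ratio with at least 20 UMIs in each cluster and library, and the contrast of cell types with at least 100 UMIs. Ccl21a-high and Aire-high clusters were those with at least 50% of the highest level, a rule set after marker levels had been seen. The computation was tested on simulated counts.

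The members and lists were chosen with earlier results of these data known. Besides the 10 genes, the 3 highest and the 3 lowest genes of the AP-1, heat-shock and unfolded protein lists and the 5 genes most like Fos and Hspa1a, among those with at least 500 UMIs and with 0.1 added, are named. Flow cytometry and BrdU data were not analysed here. Sequences are from RefSeq tables and gene positions from GENCODE M21.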

Additional observations from a re-analysis of the deposited data

Results flagged for a closer look

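Barcodes that the limits left out were not part of the comparisons, and some classes of them held more AP-1 UMIs than the kept cells. In the 1548 barcodes of the smaller library with 2000 or fewer detected genes, the AP-1 sum was 61.3 UMIs per 10000 [60.5 to 62.2], against 44.4 in kept cells, and the heat-shock sum was 50.4, against 47.2. In the 1925 such barcodes of the larger library the AP-1 sum was 28.7 [28.2 to 29.2], against 21.0, and the heat-shock sum was 34.7 [34.1 to 35.2], against 34.2 [34.0 to 34.3], which is within counting error. In barcodes with over 2000 genes and 15% or more mitochondrial UMIs, the AP-1 sum was 63.5 in the smaller (124 barcodes) and 27.3 in the larger library (151 barcodes), and the heat-shock sum was 49.2 in the smaller and 32.7 [31.7 to 33.8] in the larger, the latter below its kept cells. In the 32 and 21 barcodes with 7500 or more genes the AP-1 sums were 33.5 and 11.3, below the kept cells of both libraries. In the 964 and 1235 barcodes with 1000 or fewer genes the AP-1 sums were 40.8 and 21.1, close to or under the kept cells. The cell types of the barcodes left out were not determined.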

How the results depend on the processing

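The alternatives gave 297 values for 27 results. Of these, 10 values for the levels by cluster and 1 for the share of genes are not signed measures. No other value changed sign, and 5 of the 297 moved. These were the cell type contrasts of Jun (2.26 as reported, 1.76 with a limit of 10% mitochondrial UMIs, 1.95 with the list genes kept for clustering) and Hspa8 (-0.58 as reported, -0.44 with a limit of 1000 detected genes, -0.42 without integration), each by more than 1 SD of the values of the 2 libraries, and the share of genes below. The AP-1 sum, larger over smaller library, ran from -1.08 to -0.79 over the alternatives, and the heat-shock sum from -0.58 to -0.44. In the cell type contrast the AP-1 sum ran from 1.56 to 1.81 and the heat-shock sum from 0.23 to 0.41. The SD was larger than the contrast itself for Junb (0.57 against 0.49) and the heat-shock sum (0.33 against 0.30). For these 2 a fall to 0 would not have counted as moved. The clusterings also differed in the sets compared, with 1 to 5 Ccl21a-high and 1 to 3 Aire-high clusters. The correlation across cells ran from 0.38 to 0.57. Between 8 and 9 of the 10 genes were at least 1.5-fold lower in the larger library under every clustering tried. With 50 UMIs required in place of 20, the share of all genes at least 1.5-fold lower was 0.621% in place of 0.358%, since fewer genes were tested. No paired analysis was possible because each condition is 1 library. For the same reason no library could be left out. The intervals cover counting error only, the conditions of the libraries are named differently by the sources, and a difference of preparation between the 2 pools cannot be told apart from one of condition.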

Other observations

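Cluster 12, with 24 cells in the smaller and 18 in the larger library, was too small to be compared. It was led by Cd177, Scg2, Car8 and Chgb and had the highest Fos of all 14 clusters, at 35.3 [33.1 to 37.7] and 27.5 [24.7 to 30.6] UMIs per 10000. Its AP-1 sum was 115 and 65.2, also the highest of both libraries. Its Hspa1a, at 14.1 [12.7 to 15.7] and 13.3 [11.4 to 15.5], did not stand apart from cluster 0 in the larger library, and its Egr1 was 15.4 and 9.62. Cluster 11, with 37 and 110 cells, carried thymocyte genes such as Rag1 and Cd8a at a median of 26456 UMIs per cell and had AP-1 sums of 16.6 and 8.54. Cluster 13, with the ciliated cell gene Dynlrb2 among its leading genes, had 7 and 14 cells and AP-1 sums of 18.6 and 7.74.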
